A study of Mus musculus with 6 samples.

Results

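The neuromuscular junction is where a motor nerve meets a muscle fibre, and this account follows 10 genes of its muscle side in cultured mouse muscle stem cells exposed to BMP6. The genes are Chrna1, Chrnb1, Chrnd, Chrng and Chrne, which encode the subunits of the muscle acetylcholine receptor, and Agrn, Lrp4, Musk, Dok7 and Rapsn, which encode the organisers that gather receptors under the nerve. They were taken by name, by their place in the junction, out of 20163 genes with a symbol on the array. The probe set for each gene was to be chosen by the highest mean over the 6 arrays, but each of the 10 genes had a single probe set, so that measured value decided nothing here. The 10 genes were chosen, and Dok7 singled out among them, with earlier results of these data known. The levels by replicate number had also been seen.

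The cells were adult muscle stem cells of female C57BL/6J mice aged 6 to 8 weeks, grown on Matrigel for 2 days and then kept for 6 h without serum in the presence of 200 ng/ml ALK3-Fc, a soluble receptor that captures BMPs. Of these cultures 3 received 100 ng/ml BMP6 for 1 h and 3 received vehicle, the solvent of BMP6, and each gave 1 array. All 6 shared the serum withdrawal and ALK3-Fc, and no nerve is mentioned in the labels. The titles number the cultures of each treatment as biological replicates 1, 2 and 3. In the source names the third vehicle culture carries mouse 2, while the third BMP6 culture carries mouse 3, and results that rest on replicate number are limited by this conflict. Values are log2 expression after RMA, and a step of 1 on this scale is 2-fold.

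In muscle, agrin released by the nerve binds LRP4, which activates the receptor tyrosine kinase MuSK. DOK7 binds MuSK from inside the cell and is needed for its full activity, and rapsyn then clusters acetylcholine receptors. The receptor is a pentamer with a gamma subunit in fetal and denervated muscle and an epsilon subunit in adult innervated muscle, and genes of several subunits are turned on by MyoD and myogenin through E-boxes when myoblasts differentiate.

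Promoter windows of 300 bases, 250 before and 50 after an annotated start, were taken from RefSeq on GRCm38.p6. There were 9 windows for 7 of the genes, and Chrnd, Lrp4 and Rapsn had no entry. Each was searched on both strands for 4 motifs. The E-box is CANNTG in general, and CAGCTG is the kind of E-box core that MyoD and myogenin favour, so both overlap by construction. The N-box core, bound by the ETS factor GABP, is CCGGAA. The GC-rich element bound by BMP SMADs is GGCGCC. An E-box occurred in 7 of the 9 windows, against 72.3% of all 32851 windows in the table. CAGCTG occurred in 4 of 9 (16.3% of all), CCGGAA in 1 of 9 (14.9%) and GGCGCC in 3 of 9 (11.9%). A match is a run of letters and not a measured binding site.

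The windows of Chrna1, Chrng and Chrne are printed because they show E-boxes and the N-box in receptor subunit genes. That of the second Dok7 start is printed because Dok7 carried the largest BMP6 difference among the 10 genes. It is also the Dok7 window that holds GGCGCC. The window of the first Dok7 start, not printed, ends at base 35056815 of chromosome 5. The printed Dok7 window, with its GGCGCC matches, therefore lies wholly downstream of the first start. Capitals mark every match of the searched letters. Chrna1 lies on the minus strand (chr2:73580289-73580588), Chrng on the plus strand (chr1:87205561-87205860), Chrne on the minus strand (chr11:70619145-70619444) and the second Dok7 start on the plus strand (chr5:35056822-35057121).
Chrna1: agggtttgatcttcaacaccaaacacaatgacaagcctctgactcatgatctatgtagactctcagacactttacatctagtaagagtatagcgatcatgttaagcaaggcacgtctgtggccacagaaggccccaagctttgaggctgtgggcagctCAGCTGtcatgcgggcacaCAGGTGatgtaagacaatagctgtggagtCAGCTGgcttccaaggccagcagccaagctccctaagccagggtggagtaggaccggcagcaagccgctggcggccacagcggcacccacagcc
Chrng: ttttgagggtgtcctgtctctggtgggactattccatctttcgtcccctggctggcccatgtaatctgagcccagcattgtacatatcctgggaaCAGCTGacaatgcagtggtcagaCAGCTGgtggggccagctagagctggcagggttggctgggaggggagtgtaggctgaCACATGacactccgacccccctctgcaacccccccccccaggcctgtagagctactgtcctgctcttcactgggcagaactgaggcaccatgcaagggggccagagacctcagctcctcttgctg
Chrne: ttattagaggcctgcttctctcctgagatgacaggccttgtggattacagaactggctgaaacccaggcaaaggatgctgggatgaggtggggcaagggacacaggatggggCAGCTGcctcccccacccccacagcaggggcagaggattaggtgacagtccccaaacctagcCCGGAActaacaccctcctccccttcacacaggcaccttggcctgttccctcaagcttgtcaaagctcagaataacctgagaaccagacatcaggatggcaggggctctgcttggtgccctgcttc
Dok7: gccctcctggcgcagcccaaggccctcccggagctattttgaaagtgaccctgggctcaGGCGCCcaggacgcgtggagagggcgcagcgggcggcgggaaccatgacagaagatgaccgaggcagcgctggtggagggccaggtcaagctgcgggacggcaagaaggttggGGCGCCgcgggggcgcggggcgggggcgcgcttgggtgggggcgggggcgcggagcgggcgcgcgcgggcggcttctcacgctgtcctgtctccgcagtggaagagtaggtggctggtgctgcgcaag

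The Chrna1 window held 3 E-boxes, the Chrng window 3 and the Chrne window 1, the last together with the only N-box match among the 9 windows, which began 76 bases before the start. The second Dok7 start had 2 matches to GGCGCC and no E-box, whereas the window of the first Dok7 start had 1 E-box and no GGCGCC. The same letters also occurred in the Chrnb1 window and in that of the first Agrn start.

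After 1 h of BMP6 none of the 10 junction genes was called, while 17 of all 20163 genes (0.0843%) passed limma at an adjusted p under 0.05, all of them higher. Dok7 came nearest, at 1.42 times the vehicle level, and Lrp4 was next at 1.16 times. The other 8 genes lay between 0.896 and 1.10 times vehicle. For the 9 genes without Dok7, the 95% intervals of the fold reached no lower than 0.753 and no higher than 1.34. In the same fit Id1 and Smad7, immediate targets of BMP signalling, rose 2.99-fold and 3.30-fold (limma adjusted p = 0.000116 and 3.93e-05).

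**Figure D1:**
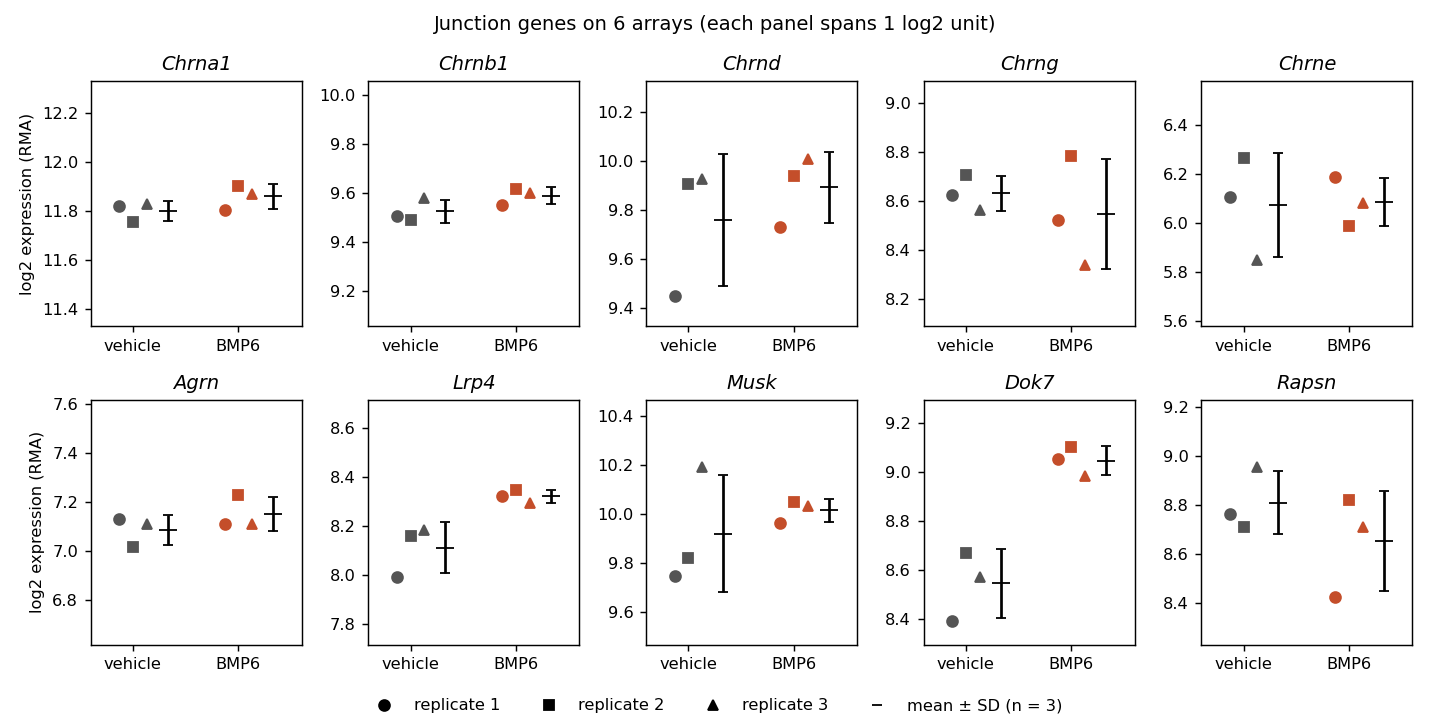
Log2 expression (RMA) of the 10 junction genes on each of 6 arrays, by treatment, with the symbol shape giving the replicate number and the bar the mean ± SD of 3 arrays; every panel spans 1 log2 unit. The 3 BMP6 arrays lie above the 3 vehicle arrays for Dok7 and Lrp4, and the groups overlap for the other 8 genes.

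Dok7, the adaptor that activates MuSK from within the cell, had log2 values of 9.05, 9.10 and 8.99 in the BMP6 cultures numbered 1, 2 and 3, against 8.39, 8.67 and 8.57 in the vehicle cultures. The groups did not overlap, and the BMP6 values were the more tightly spaced, with an SD of 0.06 against 0.14 (n = 3 each). The log2 fold change was 0.50 (SE 0.09, 95% interval of the fold 1.23 to 1.62), with differences of 0.66, 0.43 and 0.41 within the numbered pairs. It ranked 29 among 20163 genes by p, and its adjusted p of 0.158 in limma missed the threshold. With replicate number as a block the adjusted p was 0.0600. Dok7 passed with replicate number as a random block (adjusted p = 0.0439) and among genes brighter than the median gene (adjusted p = 0.0471), in 2 of 16 alternatives whose adjusted p ran from 0.0439 to 0.857. In all 16 its log2 fold change was positive, between 0.42 and 0.56. That shared sign adds no support. Many of the settings refit the same 6 values and returned the same 0.50. Since the groups did not overlap, leaving out arrays could not change the sign. The smallest difference among the 17 called genes was 0.64.

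Lrp4, the agrin receptor, stood at 8.33, 8.35 and 8.30 in BMP6 and at 7.99, 8.16 and 8.19 in vehicle. The groups did not overlap, although vehicle replicates 2 and 3 came close to the BMP6 values. Its log2 fold change was 0.21 (SE 0.08, adjusted p = 1 in limma, unadjusted p = 0.0246), with pair differences of 0.33, 0.19 and 0.11. Over the 6 arrays Lrp4 and Dok7 correlated at r = 0.96, a description of arrays that share the treatment and cells.

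These 2 of the 10 genes were the ones above vehicle without overlap, where 3.84% of all genes were. They were also the 2 with an unadjusted p under 0.05 in the upward direction, against 1.4% of all genes. Higher in 3 of 3 pairs were 4 genes, Chrnb1, Chrnd, Lrp4 and Dok7, against 13.3% of all genes. Their differences were as small as 0.02 (Chrnb1, pair 3) and 0.03 (Chrnd, pair 2). Because the 10 genes were chosen, and Dok7 was known, from earlier results of these data, these counts are no support for a response of the group. The median log2 fold change of the 10 was 0.06, and that of all genes was -0.0013.

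**Figure D2:**
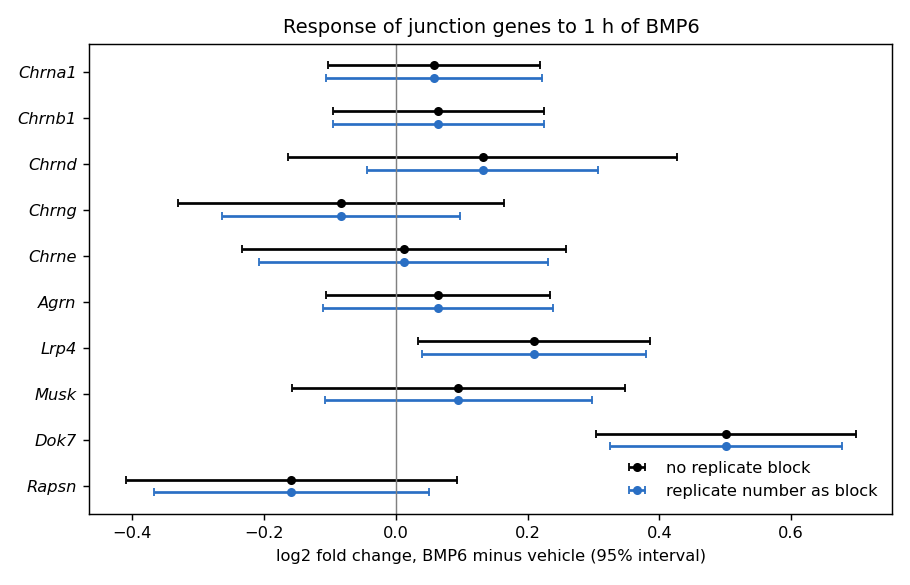
Log2 fold change of BMP6 over vehicle for the 10 junction genes with 95% intervals, without a block (black) and with replicate number as a block (blue). The intervals of Dok7 (log2 fold change 0.50) and Lrp4 (0.21) lie above 0, and those of the other 8 genes include it.

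For the remaining organisers the groups overlapped and the 95% interval of the difference included 0. Musk, the receptor tyrosine kinase at the centre of the pathway, stood at 9.96, 10.05 and 10.03 in BMP6 and at 9.75, 9.82 and 10.19 in vehicle. The highest and the 2 lowest of the 6 values were vehicle arrays, and the log2 fold change was 0.09 (SE 0.11). Rapsn, which encodes the clustering protein rapsyn, stood at 8.42, 8.82 and 8.71 in BMP6 and at 8.76, 8.71 and 8.95 in vehicle. The groups overlapped, with the lowest value in BMP6 replicate 1, and the log2 fold change was -0.16 (SE 0.11). Agrn, whose muscle form lacks much of the clustering activity of the nerve form, stood at 7.11, 7.23 and 7.11 in BMP6 and at 7.13, 7.02 and 7.11 in vehicle, a log2 fold change of 0.06 (SE 0.08). One probe set cannot separate nerve and muscle splice forms.

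The 5 receptor subunit genes had log2 fold changes from -0.08 (Chrng) to 0.13 (Chrnd), with a median of 0.06. Chrna1, which encodes the subunit that carries most of the acetylcholine binding site, had a mean at percentile 99.2 of all genes and stood at 11.80, 11.90 and 11.87 in BMP6 and at 11.82, 11.75 and 11.83 in vehicle. Its SD over all 6 arrays was 0.05, and the log2 fold change of 0.06 (SE 0.07) leaves a 95% interval of 0.931 to 1.16 for the fold. Chrnb1, which encodes the beta subunit, stood at 9.55, 9.62 and 9.60 in BMP6 and at 9.51, 9.49 and 9.58 in vehicle, a difference of 0.06 (SE 0.07). Both genes therefore stayed within a narrow band on every array.

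Chrnd, encoding the delta subunit, stood at 9.73, 9.94 and 10.01 in BMP6 and at 9.45, 9.91 and 9.93 in vehicle. Both replicate 1 arrays were the lowest of their group, and the log2 fold change was 0.13 (SE 0.13, or 0.08 with the replicate block). Chrng, the fetal gamma subunit, stood at 8.52, 8.78 and 8.34 in BMP6 and at 8.62, 8.70 and 8.56 in vehicle, with a log2 fold change of -0.08 (SE 0.11) and the highest and lowest values both in BMP6. Chrne, the adult epsilon subunit, stood at 6.18, 5.99 and 6.08 in BMP6 and at 6.11, 6.26 and 5.85 in vehicle, a log2 fold change of 0.01 (SE 0.11).

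Chrne was the dimmest of the 10 genes, below the median gene mean of 6.41, and RMA compresses differences at such values. As a rough reference, 1.57% of 1016 olfactory receptor genes had a higher mean, with probe affinities that differ from gene to gene. The other 9 genes lay above the median gene. Such comparisons of level between genes are rough and do not rank amounts of transcript, since probe sets differ in affinity.

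**Figure D3:**
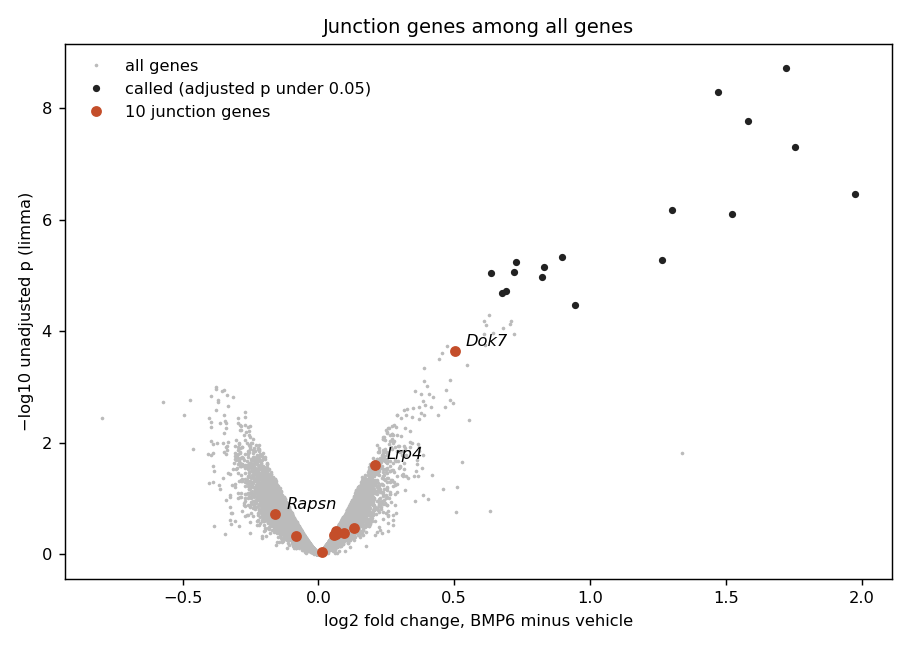
Log2 fold change of BMP6 over vehicle against −log10 of the unadjusted limma p for all 20163 genes, with the 17 called genes in black and the 10 junction genes in orange. Dok7 lies between the called genes and the bulk, at a log2 fold change of 0.50, and the other junction genes lie within the bulk.

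Several genes of muscle differentiation differed by replicate number, while no junction gene passed that test. A moderated F test of replicate number, with treatment in the model, called 79 of all genes (0.392%) and none of the 10 junction genes. Myog, which encodes myogenin, was at 8.65 and 8.75 on the BMP6 and vehicle arrays of number 1, at 8.33 and 7.94 on those of number 2 and at 6.85 and 7.03 on those of number 3. The log2 difference of number 3 from number 1 was -1.76 (95% interval -2.06 to -1.46, limma adjusted p of the F test = 0.000913). Myh3, the embryonic myosin heavy chain, differed between these numbers by -2.92, and Mymk, the fusion protein myomaker, by -1.58 (limma adjusted p of the F test = 1.98e-06 and 0.000422). Myod1, also named as a gene of differentiating muscle cells but listed below with the stem cell markers, was not called. Its difference between numbers 3 and 1 was -0.004 (95% interval -0.21 to 0.20, limma adjusted p of the F test = 0.937). Of the 26 listed genes of differentiating muscle cells 14 were called by replicate number and 0 by BMP6 in limma, where 0 had an unadjusted p under 0.05.

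Chrna1, by comparison, averaged 11.81, 11.83 and 11.85 in numbers 1, 2 and 3, and its difference between numbers 3 and 1 was 0.04 (95% interval -0.16 to 0.24). Chrnb1 and Agrn differed between these numbers by 0.06 (-0.13 to 0.26) and -0.01 (-0.22 to 0.20). For all 10 genes the interval of this difference lay within -0.45 to 0.59, apart from that of Myog. Over the 6 arrays Myog correlated with Chrna1 at r = -0.19, with Chrng at 0.56 and with Chrnd at -0.74, all descriptions over arrays of which pairs share a number.

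Chrnd had the largest difference by number among the 10. It averaged 9.59 in number 1, 9.92 in number 2 and 9.97 in number 3, so that number 1, where Myog was highest, was the lowest. Numbers 3 and 1 differed by 0.38 (95% interval 0.16 to 0.59), and numbers 3 and 2 by 0.05 (-0.17 to 0.26). Chrng averaged 8.57, 8.74 and 8.45, and numbers 3 and 2 differed by -0.29 (-0.52 to -0.07). These were the 2 genes with an unadjusted F test p under 0.05 in limma (0.00565 for Chrnd and 0.0424 for Chrng), where 14% of all genes had one, and neither was called (limma adjusted p = 0.215 and 0.337). Chrnd passed with an intensity trend (adjusted p = 0.0266) and among genes brighter than the median gene (0.0136), in 2 of 13 alternatives that ran from 0.0136 to 0.851. With the mouse of the source names in place of the replicate number, 0 genes passed in limma, so neither Myog nor Chrnd did, and 1092 had an unadjusted p under 0.05.

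Musk averaged 9.85, 9.93 and 10.11 in numbers 1, 2 and 3, with numbers 3 and 1 apart by 0.26 (95% interval 0.01 to 0.51). Rapsn averaged 8.59, 8.76 and 8.83 (difference 0.24, -0.02 to 0.50), and Chrne 6.15, 6.13 and 5.96 (difference -0.18, -0.45 to 0.09). Dok7 averaged 8.72, 8.89 and 8.78 and Lrp4 8.16, 8.25 and 8.24, so both differed less between numbers than between treatments. None of these passed by replicate number.

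**Figure D4:**
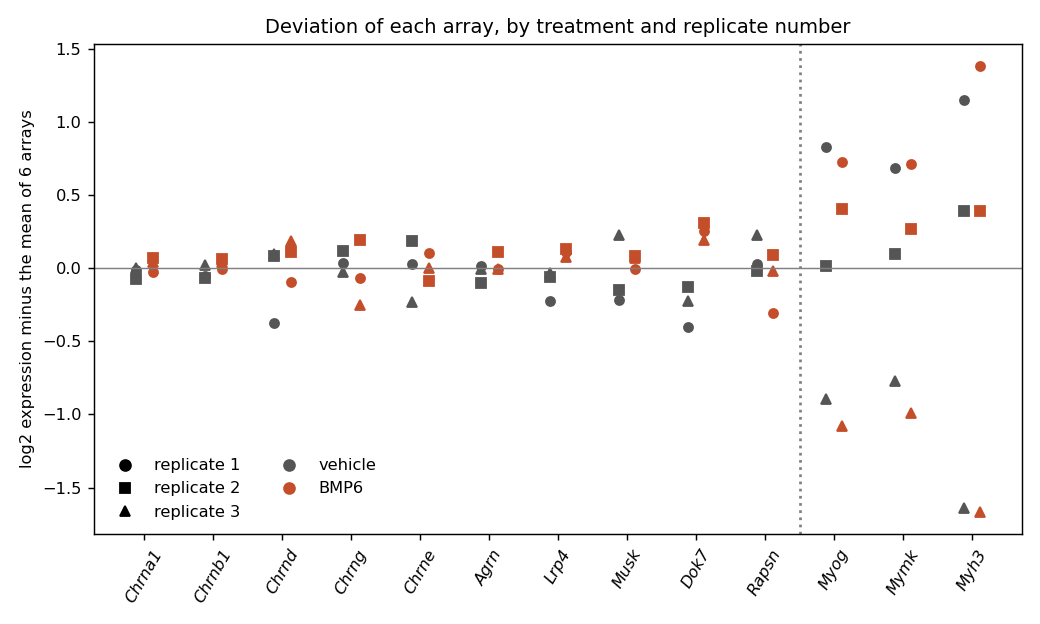
Log2 expression minus the mean of the 6 arrays for the 10 junction genes and, right of the dotted line, for Myog, Mymk and Myh3, coloured by treatment with the symbol shape giving the replicate number. The replicate 3 arrays are the lowest for all 3 differentiation genes, by up to 1.67 for Myh3, while the largest deviation of a junction gene is 0.40, that of Dok7.

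Beyond the 10 genes, 56 further genes of the junction were listed, covering its matrix, the dystrophin-associated complex, neuregulin signalling, kinases downstream of MuSK and genes of congenital myasthenic syndromes. None was called for BMP6 in limma, 1 was higher and 0 were lower at an unadjusted p under 0.05, and the 56 had a median log2 fold change of 0.01, where all genes had -0.0013. The 1 gene was Ache, the acetylcholinesterase that ends each signal, at 5.09, 4.97 and 5.09 in BMP6 and 4.93, 4.82 and 4.60 in vehicle (log2 fold change 0.26, SE 0.10, adjusted p = 1). Its groups did not overlap, but the values lay among the dim probe sets. Among the next by p were Gabpb1, which encodes the partner of the N-box factor GABP (0.14, SE 0.08), the neuregulin co-receptor gene Erbb2 (-0.15, SE 0.09), the transcriptional regulator Dach2 (0.12, SE 0.07) and the kinase gene Abl1 (0.15, SE 0.10).

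By replicate number 0 of the 56 were called, and 7 had an unadjusted F test p under 0.05, which is 12.5% of the list beside the 14% of all genes. Among them, in order of p, were Dag1 (dystroglycan, which links the matrix to the membrane) and Sntb1 (a syntrophin). Then came Gfpt1 (the first enzyme of hexosamine synthesis), Slc12a2, Yes1 and Lamb2 (a laminin chain of the synaptic matrix). Etv4 was next in order, but its unadjusted F test p of 0.0516 in limma lay above that threshold. Dag1 averaged 9.35, 9.58 and 9.65 in numbers 1, 2 and 3, in the same order as Chrnd. The adjusted p of the genes named here ran from 0.258 to 0.360 in limma.

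Genes whose values were most like those of Dok7 over the 6 arrays, among 1507 genes with an SD of at least 0.2, were Esm1, which encodes the secreted proteoglycan endocan (r = 0.973), Dusp1 (0.969), Ackr3, a scavenging receptor of CXCL12 (0.965), and Mir23a, a microRNA gene (0.963). Of these Dusp1, a MAP kinase phosphatase, was called for BMP6 (log2 fold change 0.73, limma adjusted p = 0.0115), and the others stood at 0.34, 0.39 and 0.44 without passing. Those most like Chrna1 were Mstn (myostatin, r = 0.969), Gvin3 (0.945), Or2ak4 (0.905) and Flg2 (0.902), all with an adjusted p of 1. Chrna1 itself had an SD of 0.05, below the 0.2 asked of the other genes, so its likeness rests on very small differences. A likeness over 6 arrays of 2 treatments is a description only.

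Of 11 markers of muscle stem cells, the label of these samples, 9 had a mean above the median gene, with Pax7 between 8.75 and 8.94 and Myod1 between 12.05 and 12.30 on all arrays. In limma 1 of the 11, Cxcr4, was called higher in BMP6, where 0.0843% of all genes were called. By replicate number 2, Myf5 and Cd34, were called, against 0.392% of all genes. These 3 were named after their values were seen. Of 15 measured genes of nerve terminals 1 lay above the median gene, as did 0 of 7 endothelial and 1 of 7 immune markers, while 5 of 8 Schwann cell and 5 of 8 fibro-adipogenic markers did. By replicate number 1 of the 8 Schwann cell and 1 of the 8 fibro-adipogenic markers were called, and 0 of the endothelial, immune and nerve terminal genes. The mean level of the fibro-adipogenic list ran from 6.21 to 6.44 in BMP6 and from 6.41 to 6.55 in vehicle. For BMP6, 2 of its 8 genes were lower at an unadjusted p under 0.05, against 1.77% of all genes, and 0 were called. The part of this list in the Dok7 and Lrp4 differences was not tested. The list of differentiating cells, for which fewer such cells and less RNA per cell cannot be told apart in these bulk samples, ran from 7.08 to 8.12 in BMP6 and from 7.08 to 8.05 in vehicle.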

How the data were processed

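Each of the 6 cultures gave 1 array of biotin-labelled sense-strand cDNA. The authors deposited log2 expression values, for which the submitters' processing notes name RMA and oligo. The sources used here give no version, array type or annotation source. RMA forces a common distribution on the arrays and hides a shift common to most genes. Of 34760 probe sets, 21893 carried a symbol, and the brightest of each gene left 20163 genes. The second deposited table differed by at most 5e-09. Arrays give no read depth, and their number limits the precision.

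The treatments were compared with limma 3.58.1 (R 4.3.3; two-sided moderated test, no block), adjusted by Benjamini-Hochberg over all 20163 genes, and calls needed an adjusted p under 0.05. Replicate number was tested by the moderated F test with treatment in the model. Intervals are those of the moderated test. Both fits were tested on simulated data. Nothing says that the cultures came from separate mice beyond the source names, so p-values for BMP6 without a block measure the spread between these samples. Those of the F test set the differences between numbers against what remains between the BMP6 and vehicle arrays of each number.

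The source names give the same mouse to the pairs numbered 1 and 2 but not to the third, while the column headers share a code within all 3. Deviations from the group means correlated at 0.31, 0.05 and 0.43 within pairs 1, 2 and 3. Between arrays of different numbers r ran from -0.44 to 0.18, the last for BMP6 replicate 1 and vehicle replicate 2. BMP6 replicate 2 and vehicle replicate 3, both mouse 2 in the source names, stood at 0.02. Which label holds was not tested. The replicate block raised the count from 17 to 29 genes, the same 17 among them, and no junction gene passed with it.

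Named genes were the 10 junction genes, of 56 further junction genes the 6 with the lowest p for BMP6 and the 8 with the lowest for replicate number, the 4 genes most like Dok7 and the 4 most like Chrna1 over 6 arrays, and Myog, Myod1, Mymk, Myh3, Id1, Smad7 and Pax7. A gene that this rule takes is not reported here. Members and lists were chosen with earlier results of these data known. The listed Tubb3 was not among the table's symbols. The planned search for a protein motif in the receptor subunits was not made.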

Additional observations from a re-analysis of the deposited data

How the results depend on the processing

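The number of genes called for BMP6, 17 as reported, was 29 with replicate number as a fixed replicate block, 32 with it as a random block, 30 among genes brighter than the median gene, 26 with an intensity trend and 3 with all probe sets, and lay between 7 and 15 when 1 array was left out. The count of junction genes called was 1 (Dok7) with the random block and among brighter genes, and 0 in the other 14 alternatives. None of the 56 further junction genes was called in any of 16. The number called by replicate number, 79 as reported, was 43 without treatment in the model, 0 by mouse of the source names, 663 among brighter genes, 307 with an intensity trend and 19 without the third pair, and lay between 21 and 95 without 1 array. The junction genes called were 1 (Chrnd) among brighter genes and 1 (Chrnd) with the trend, and 0 in the other 11. Fewer genes tested or fewer arrays is part of the brighter-gene and left-out settings; otherwise the cause was not tested. Chrnd, Chrng and Chrne, none of them called, changed sign for BMP6 in 1 of 16, 2 of 16 and 4 of 15 alternatives, Chrnd without vehicle replicate 1 (-0.02). Chrne is dimmer than the median gene and had no value among brighter genes.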

Other observations

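The 11 genes of neuronal acetylcholine receptor subunits, which are not part of the muscle receptor, were mostly dim, and 1 of them, Chrna7, had a mean above the median gene. Chrna7, the subunit of the homomeric alpha7 receptor, stood at 6.91, 6.78 and 6.87 in BMP6 and at 6.71, 6.79 and 6.89 in vehicle. For BMP6, limma called 0 of the 11 and gave 0 of them an unadjusted p below 0.05, and their median log2 fold change was -0.0010. By replicate number 0 were called and 3 had an unadjusted p under 0.05 (27.3%, beside 14% of all genes), with these genes chosen after their values were seen: Chrnb3, Chrnb2 and Chrna4.

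Agrn had the same value, 7.11, to 6 decimals on 3 of its 6 arrays, BMP6 replicates 1 and 3 and vehicle replicate 3. Of all 20163 genes, 10 (0.0496%) had 3 or more equal values at that tolerance and 252 had 2. The raw array files were not used here.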
